A study of Arabidopsis thaliana with 32 samples.

Results

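In roots of the Arabidopsis thaliana mutant max2, 192 genes were listed as changed by zaxinone that were not listed in the authors' tables for Col-0 (wild type), d14 and kai2. They made up 12.7% of the 1514 genes of the max2 table, and 3443 genes were listed in at least 1 of the 4 tables. A gene belonged to the set when its locus code stood in the max2 table and in none of the others, and its direction came from its mean FPKM (fragments per kilobase of exon and mega-fragment) after zaxinone and after mock treatment. The set held 110 genes with higher and 82 with lower values after zaxinone. All roots came from plants 5 weeks old grown in hydroponics and were harvested 6 h after treatment. Zaxinone was given at 20 µM in the medium with 1% acetone as solvent, and mock plants received the solvent only, so that all groups share the acetone. Each genotype and treatment had 4 libraries, so that the values below come from 8 max2 libraries. The labels do not name the max2 allele, and the MAX2 gene itself stood in none of the tables, so the genotype was not checked against it. Nor do they say whether the replicates came from separate plants or cultures, and the p-values speak only of library-to-library spread.

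Zaxinone is an apocarotenoid, a small product of carotenoid cleavage that was first studied as a growth regulator of rice. MAX2 is an F-box protein that works in ubiquitin ligase complexes together with the receptors D14, which binds strigolactones, and KAI2, which takes part in karrikin responses. Loss of MAX2 is known to block both kinds of signalling.

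The rule used the max2 comparison itself, the genes having been selected on their max2 fold changes and adjusted p, so those values describe the selection and support nothing. A table lists a gene when the authors' adjusted p was under 0.05 and the absolute log2 fold change at least 1, and unlisted genes were not analysed here. Absence from a table is no evidence against a response in that genotype, and no value of these genes in Col-0, d14 or kai2 was analysed. The max2 table listed 6.17% of the 24534 genes whose tests the deposited p-values imply, 3.57% as higher and 2.60% as lower. The same share was 7.33% in Col-0, 9.45% in d14 and 7.44% in kai2. In whole roots, fewer cells of a type and less RNA per cell cannot be told apart.

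The depth of the 8 libraries lay between 47.9 and 64.1 M fragments (M, mega), and the 192 genes held 0.299 to 0.457% of them. Most of the genes were weakly expressed. Their median level over the libraries was 0.934 FPKM, against 3.80 FPKM for the 1322 max2 genes that another table also listed. In 22.4% of the 192 the higher group averaged under 20 normalized counts (raw counts divided by the authors' factor per library), against 7.19% of the other listed genes. The median absolute log2 fold change in the authors' deposited table was 1.33, against 1.57 for the other listed genes. In 44.8% it lay under 1.25, against 25.1% of the others, and 30.7% had an adjusted p over 0.01 in the authors' deposited table, against 8.40%. Fold changes were large where levels were low, and of the 5 most abundant genes all but AT3G03270 had an absolute log2 fold change between 1.01 and 1.07, as the plot of fold change against level shows.

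**Figure D1:**
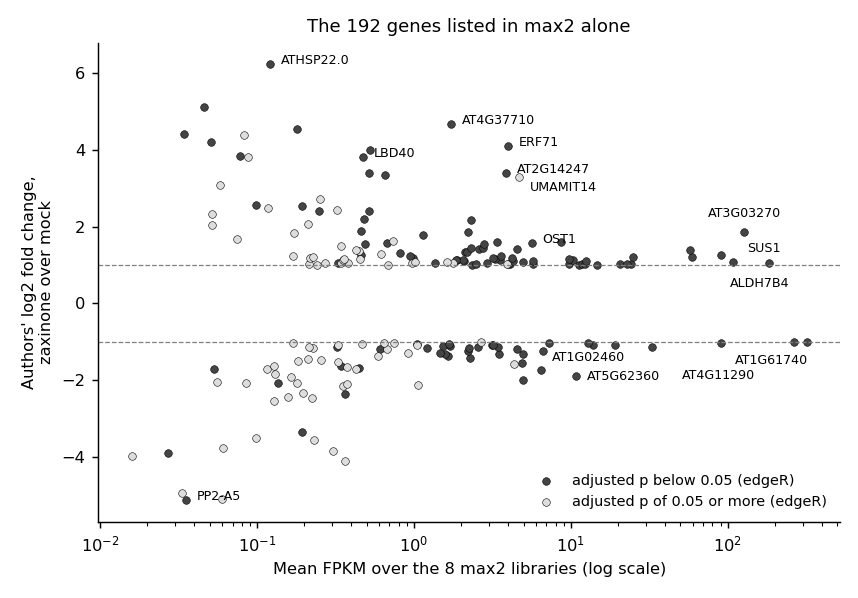
Authors' log2 fold change of zaxinone over mock (vertical axis) against the mean FPKM over the 8 max2 libraries (horizontal axis, log scale) for the 192 genes, 1 point per gene, dark where edgeR gave an adjusted p below 0.05; dashed lines mark log2 fold changes of 1 and -1. The highest levels belonged to AT1G61740 (319 FPKM) and AT4G11290 (263 FPKM), both lower after zaxinone, and the largest fold changes to genes with means far below 1 FPKM.

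The groups did not overlap, 4 against 4 libraries, in 149 of the 192 genes (77.6%), against 90.6% of all listed max2 genes. Of the 149, 85 were higher and 64 lower, and the shares over all listed genes were 91.2% of the higher and 89.7% of the lower ones. The quasi-likelihood test of edgeR on the counts, adjusted over the 24534 implied tests, called 117 of the 192 (60.9%), against 83.3% of all listed genes. By direction it called 76 of the 110 higher genes, where the share over all genes listed higher was 84.5%, and 41 of the 82 lower genes, where it was 81.7%. The median log2 fold change was 1.27 in the higher and -1.43 in the lower genes. TMM scaling over the listed genes, which takes most of them as unchanged, moved the median of all listed genes by -0.48, and the split of calls then was 20 higher and 71 lower. Entering unlisted genes as unchanged raises the edgeR adjusted p. The spread, however, was estimated from the listed genes alone, and the net effect on the adjusted p was not tested.

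The set was close to the edge of the table. The members nearest to the fold threshold were ICL, AT1G66830 and KCS6 on the higher side, with log2 fold changes of 1.00, 1.01 and 1.01 in the authors' deposited table, and DIR1, AT1G61740 and AT4G11290 on the lower side, with -1.001, -1.01 and -1.02. Just outside the rule lay PS2, AT2G47710 and AT4G25433, which the d14 table of the authors lists with log2 fold changes of 1.00, 1.00 and 1.01. AT4G25433 was higher there and lower in max2, with -1.40 in the authors' deposited table.

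Some of the higher genes stood on lists of the response to low oxygen. Plants sense falling oxygen through transcription factors of the ERF group VII, which are stabilised and switch on fermentation and sugar breakdown. On the list of 15 low-oxygen genes, 3 were listed in max2. Of these, 2 belonged to the set, ERF71 and SUS1, both higher and both called by edgeR. The other, ERF73, was lower, with a log2 fold change of -1.92 in the authors' deposited table. A wider list of 56 genes of that response was written after the values were seen and left out ERF73. Of these 56 genes, 16 were listed in max2, 15 higher and 1 lower. The lower gene, AT4G39675, was no member and had a log2 fold change of -1.14 in the authors' deposited table. From the wider list 9 genes belonged to the set, all 9 higher and called by edgeR. They were ERF71, SUS1, AT3G03270, AT5G66985, AT3G23170, SRO5, AT5G44730, PHI-1 and AT1G72940. The wider list is no independent evidence of a theme.

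ERF71 (chr2:19502776-19503702, minus strand, build TAIR10.1), a transcription factor of the ERF group VII also called HRE2, had 31.1, 12.001, 16.6 and 18.21 normalized counts in the mock libraries 1 to 4. After zaxinone it had 291, 31.0, 389 and 632, so that replicate 2 stayed at the level of the highest mock library. The log2 fold change was 4.09 ± 0.69 (SE, edgeR, adjusted p = 0.00209), and 4.47 without zaxinone replicate 2. Under limma-voom the adjusted p was 0.106 and the call was lost. ERF73, its closest relative HRE1 and no member, had between 11848 and 12883 normalized counts in mock and between 2184 and 3903 after zaxinone.

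AT3G03270 (chr3:761004-763369, minus strand), which encodes a universal stress protein known as HRU1, was among the most abundant genes of the set. It had 74.8, 39.96, 29.8 and 74.2 FPKM in the mock libraries and 213, 74.5, 219 and 292 FPKM after zaxinone. Replicate 2 of zaxinone lay just under mock replicate 1. The log2 fold change was 1.87 ± 0.39 (SE, edgeR, adjusted p = 0.0103), and 2.14 without zaxinone replicate 2. With TMM scaling over the listed genes it was 1.399, and the adjusted p of 0.0970 did not pass.

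SUS1 (chr5:7050217-7055398, minus strand), sucrose synthase, which splits sucrose for glycolysis at low cost of ATP, had 146, 93.5, 88.4 and 147 FPKM in mock and 294, 132, 243 and 316 FPKM after zaxinone. Here too replicate 2 of zaxinone overlapped with the mock libraries, which themselves fell into 2 higher and 2 lower values. The log2 fold change was 1.05 ± 0.27 (SE, edgeR, adjusted p = 0.0440). Its adjusted p was 0.147 and 0.155 without mock replicate 2 or 3, and 0.164, 0.120 and 0.150 without zaxinone replicate 1, 3 or 4, so the call rests on all of these libraries.

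Further enzymes of sugar breakdown were higher. On the list of glycolysis and fermentation, 4 of 23 matched genes were listed in max2, all higher, and 2 of them were members. HXK2, a hexokinase that phosphorylates glucose, had 530, 455, 414 and 507 normalized counts in mock and 1015, 887, 993 and 1194 after zaxinone. The groups were well apart in all 8 libraries, with a log2 fold change of 1.101 ± 0.161 (SE, edgeR, adjusted p = 0.000690). PFK3, a phosphofructokinase of the cytosol, had 750, 746, 629 and 920 in mock and 1932, 1012, 1675 and 2006 after zaxinone. Its replicate 2 was again the lowest of the zaxinone libraries, although above all mock values, and the log2 fold change was 1.12 ± 0.22 (SE, edgeR, adjusted p = 0.00549).

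In the remaining low-oxygen members zaxinone replicate 2 was again the lowest zaxinone library, while the order of the other 3 varied. AT5G66985, a small protein of unknown function, had 1323, 985, 1065 and 1592 normalized counts in mock and 3933, 2059, 2657 and 4397 after zaxinone. AT5G44730, a hydrolase of the haloacid dehalogenase superfamily, had 617, 508, 484 and 662 in mock and 1532, 633, 1095 and 1318 after zaxinone. In both genes replicate 2 was the lowest zaxinone library, and in AT5G44730 it lay within the mock range. SRO5, a protein similar to the stress regulator RCD1, had 156, 109, 127 and 162 in mock and 475, 201, 364 and 477 after zaxinone. PHI-1, named for its induction by phosphate, had 135, 120, 90.8 and 103 in mock and 281, 141, 344 and 598 after zaxinone. Their groups did not overlap, with replicate 2 nearest to mock. The call of PHI-1 was lost without mock replicate 3 or without zaxinone replicate 3 or 4, with edgeR adjusted p of 0.0624, 0.0562 and 0.0514. Without zaxinone replicate 2, edgeR called all 9 low-oxygen members and 68 of the 110 higher members. It called 6 of the 9 without mock replicate 3, zaxinone replicate 3 or zaxinone replicate 4 (52, 53 and 56 of the 110). With limma-voom 5 of the 9 and 61 of the 110 were called. With TMM over the listed genes 2 of the 9 and 20 of the 110 were called. The median log2 fold change of the 9 then was 0.95 in place of 1.42. These 9 come from the list written after the values were seen, so their counts are a description. SRO5, AT5G44730 and AT2G14247 overlap annotated genes of the opposite strand, and since the protocol does not settle whether libraries kept the strand, reads of such partners cannot be told apart.

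**Figure D2:**
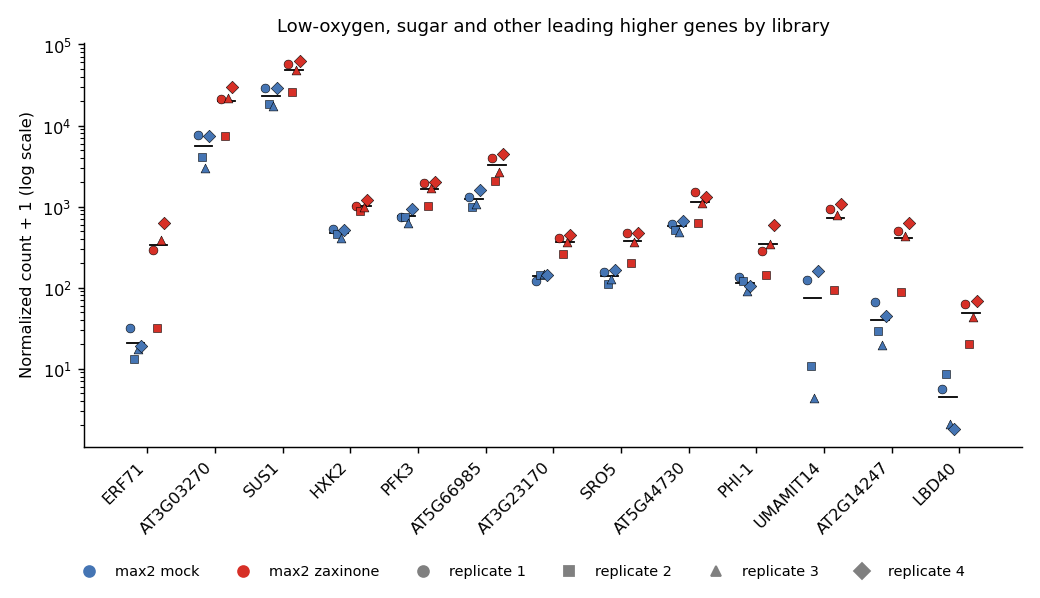
Normalized counts plus 1 (log scale) of 13 higher genes in the 4 mock (blue) and 4 zaxinone (red) libraries of max2; marker shapes give the replicate number and black lines the group means. In each of these genes zaxinone replicate 2 (red square) was the lowest zaxinone library, by a wide gap in ERF71 (31.0 against 291 to 632) and a narrow one in HXK2 (887 against 993 to 1194).

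That library stood apart in a part of the higher genes. With each library placed between the mock mean and the mean of the other zaxinone libraries on the log2(normalized count + 1) scale, zaxinone replicate 2 was nearer to mock in 28 of the 110 higher members (25.5%). In the 766 other listed higher genes this was so in 29 (3.79%). The shares for zaxinone replicates 1, 3 and 4 were 11.8, 6.36 and 7.27% of the higher members. In the other listed higher genes they were 6.66, 1.17 and 1.44%. Each zaxinone library was thus more often nearer to mock in the higher members than in the other listed higher genes. The highest zaxinone value was in replicate 4 in 54 of the 110 (49.1%), against 33.7% of the other listed higher genes. The highest mock value was in replicate 1 in 40 (36.4%) and in replicate 4 in 43 (39.1%), against 25.6 and 20.8%. In the other listed higher genes zaxinone replicate 2 was most often the highest zaxinone library, in 44.9%, against 15.5% of the higher members. In the 82 lower members zaxinone replicate 2 was nearer to mock in 4.88%, against 1.26% of the other listed lower genes. It was the zaxinone library with the lowest value in 34.1% of the lower members, against 48.2% of the other listed lower genes. Among the lower genes a mock library had a share similar to the 25.5%. Mock replicate 1 was nearer to zaxinone in 20 of the 82 lower members (24.4%), against 10.3% of the other listed lower genes. What set these libraries apart was not tested.

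**Figure D3:**
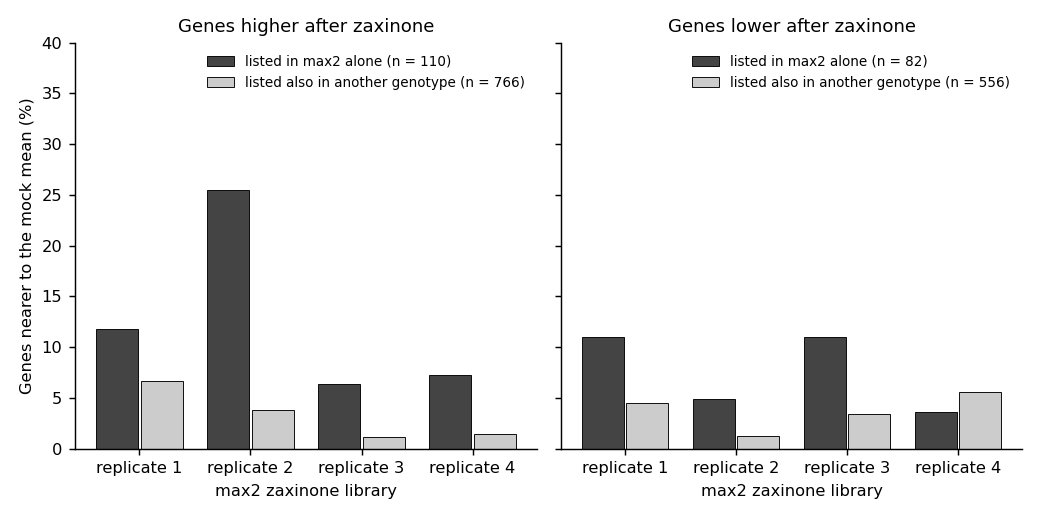
Share of genes (%) for which a max2 zaxinone library lay nearer to the mock mean than to the mean of the other zaxinone libraries, for higher (left) and lower (right) genes, dark bars for genes listed in max2 alone and pale bars for max2 genes that another genotype's table also lists. The tallest bar, 25.5%, is zaxinone replicate 2 in the higher genes of max2 alone, against 3.79% in the other higher genes.

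Zaxinone replicate 2 was also the lowest in some low-oxygen genes outside the set. AT4G10270, a wound-responsive family protein listed as well by another table, had 1451, 181, 657 and 956 normalized counts in the zaxinone libraries, against 162 to 360 in mock. AT4G33560, of the same family, had 1143, 95.2, 630 and 971, against 38.8 to 253. Replicate 2 was within the mock range in both genes. In NAC102, a transcription factor of the same list, replicate 2 was instead the highest library, with 5803, 8251, 5179 and 5855 against 1719 to 2360.

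In several other leading genes too, replicate 2 was the lowest zaxinone library. AT2G14247, an expressed protein of unknown function, had 65.0, 28.4, 18.8 and 43.9 normalized counts in mock and 506, 87.7, 429 and 626 after zaxinone. LBD40, of the LOB domain family of transcriptional regulators, had 4.58, 7.64, 1.11 and 0.828 in mock and 62.7, 19.3, 42.7 and 68.2 after zaxinone. The groups did not overlap in either gene, and the log2 fold changes were 3.38 ± 0.54 and 3.76 ± 0.60 (SE, edgeR, adjusted p = 0.00133 and 0.00135). UMAMIT14, an exporter of amino acids in root phloem unloading, had 123, 9.82, 3.32 and 157 in mock and 939, 92.0, 780 and 1076 after zaxinone. Here mock replicates 1 and 4 were above zaxinone replicate 2, the groups overlapped, and the log2 fold change of 3.27 ± 0.91 did not pass (SE, edgeR, adjusted p = 0.0653). Without mock replicate 4 it was 3.96, with an adjusted p of 0.0359.

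Among the 12 largest rises with at least 20 normalized counts and groups apart, AT4G37710 came first. It encodes a protein with a VQ motif, a family that binds WRKY transcription factors. It had 2.75, 0, 12.2 and 3.31 normalized counts in mock and 80.6, 30.0, 179 and 170 after zaxinone, and replicate 2 was again the lowest. The log2 fold change was 4.66 ± 0.73 (SE, edgeR, adjusted p = 0.00119). BPS3, related to the BYPASS proteins of root and shoot development, had 61.3, 74.2, 77.5 and 87.7 in mock and 254, 113, 330 and 394 after zaxinone. AT2G41730, annotated as a calcium-binding site protein, had 50.3, 29.5, 52.0 and 39.7 in mock and 105, 69.6, 225 and 372 after zaxinone. MES10, a methylesterase, had 6.41, 6.55, 11.1 and 6.62 in mock and 21.9, 34.2, 51.2 and 30.4 after zaxinone, an exception in which replicate 1 and not replicate 2 was the lowest zaxinone library. All 3 rose (edgeR, adjusted p = 0.00338, 0.0119 and 0.00342). The others of the 12 were AT5G26090, AT5G43450, AT4G02170, AT2G18970, PHI-1 and AT2G04005, with authors' log2 fold changes from 1.61 to 2.54 in the authors' deposited table, and all but AT2G04005 passed in edgeR. AT4G02170 lost its call without zaxinone replicate 4 (edgeR adjusted p = 0.0546) and AT2G18970 without mock replicate 3 or 4 (0.0519 and 0.0502).

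The largest folds of all belonged to genes at the limit of counting. ATHSP22.0, a small heat shock protein, had no count in any mock library and 53 raw counts over the zaxinone libraries, with 3.98, 4.28, 19.0 and 26.2 normalized counts. With the floor of 3 counts per mock library this was at least 4.52-fold higher. PP2-A5, a phloem protein, had 27 raw counts in mock and none after zaxinone, at least 2.13-fold lower. CYP79C2 and AT4G19730 also had none after zaxinone, and most of their mock counts came from replicate 4, with 18.21 and 19.9 normalized counts against at most 3.32 in the others. Floors and bounds cover counting error only. These genes, singled out after their values were seen, show how few reads lie behind the largest folds. No gene on the heat shock list of 32 matched genes was a member, but that list names HSP22 in a form that did not match ATHSP22.0.

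Hormone genes were spread over several pathways, with 1 to 3 members on each list that held any. The list of the strigolactone and karrikin pathway, with 1 of 20 matched genes listed in max2, held none. The lists of abscisic acid metabolism (5 of 14 listed) and of salicylic acid and immune response (6 of 37 listed) held none either. In the abscisic acid response, 21 of 36 genes were listed in max2 and only OST1 was a member. OST1 (chr4:16271745-16274825, plus strand), the SnRK2 kinase that relays abscisic acid signals, had 220, 334, 295 and 329 normalized counts in mock and 1091, 614, 912 and 896 after zaxinone. All 4 zaxinone libraries were above mock, and replicate 2 was the lowest. The log2 fold change was 1.58 ± 0.21 (SE, edgeR, adjusted p = 0.000378). AHG1, a protein phosphatase 2C that restrains the same pathway in seeds and was chosen here after its values were seen, had 11.9, 8.73, 1.11 and 5.79 in mock and 35.8, 11.8, 48.4 and 18.9 after zaxinone. With zaxinone replicate 2 at the mock maximum, its log2 fold change of 2.03 ± 0.58 did not pass (SE, edgeR, adjusted p = 0.0760).

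Of 51 auxin genes, 2 were listed, and GH3.3 was a member. GH3.3, which joins amino acids to auxin and so takes it out of use, had 45.8, 33.8, 38.8 and 33.1 normalized counts in mock and 98.6, 125, 139 and 90.2 after zaxinone. All zaxinone libraries were above all mock libraries, and the log2 fold change was 1.58 ± 0.25 (SE, edgeR, adjusted p = 0.00130). ILL6, which cleaves amino acid conjugates of jasmonate, was the member among 4 listed of 34 jasmonate genes. It had 199, 113, 144 and 133 in mock and 323, 346, 435 and 376 after zaxinone, a rise of 1.33 ± 0.22 on the log2 scale (SE, edgeR, adjusted p = 0.00167).

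Ethylene had 5 listed genes of 32, of which ERF71, ACS7 and ACS11 were members. The ACS enzymes make the precursor of ethylene. ACS7 had 32.9, 66.5, 55.4 and 49.7 normalized counts in mock and 80.6, 83.5, 146 and 165 after zaxinone. Its adjusted p of 0.0443 (edgeR, log2 fold change 1.22 ± 0.32, SE) was lost without any of mock replicates 1, 3 and 4 or zaxinone replicates 3 and 4, where it lay between 0.0943 and 0.176. ACS11 had 20.13, 26.2, 32.1 and 17.38 in mock and 33.8, 55.6, 47.4 and 58.7 after zaxinone, and did not pass (edgeR, adjusted p = 0.104). GA2OX4, which inactivates gibberellins, was the listed gene among 37 of gibberellin and brassinosteroid. It had 42.1, 39.3, 56.5 and 33.1 in mock and 72.7, 84.5, 136 and 62.9 after zaxinone (edgeR, adjusted p = 0.0773).

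The cytokinin member was lower. Of 37 cytokinin genes 6 were listed, 5 of them lower, and CYP735A1 alone belonged to the set. This cytochrome P450 makes trans-zeatin, the cytokinin that roots send to the shoot. It had 752, 460, 650 and 866 normalized counts in mock and 320, 329, 251 and 302 after zaxinone. The groups were apart, and the log2 fold change was -1.18 ± 0.21 (SE, edgeR, adjusted p = 0.00316).

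**Figure D4:**
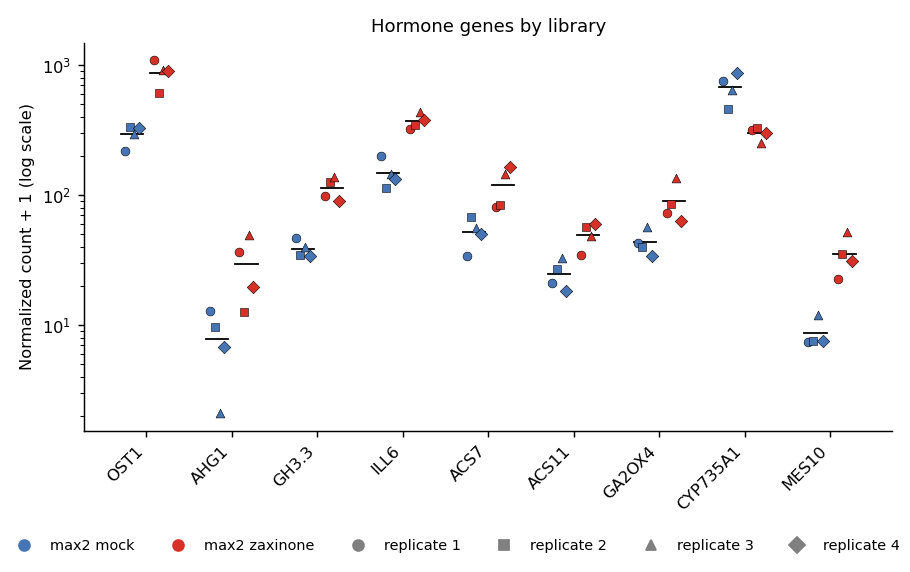
Normalized counts plus 1 (log scale) of 9 genes of hormone metabolism or signalling in the mock (blue) and zaxinone (red) libraries of max2; marker shapes give the replicate and black lines the group means. OST1 ran from 220 to 334 in mock and from 614 to 1091 after zaxinone, and CYP735A1 from 460 to 866 and from 251 to 329.

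Among genes of metabolism and transport, PLDDELTA was the steadiest. Phospholipase D delta, a plasma membrane enzyme that makes phosphatidic acid under stress, had 6962, 6635, 6350 and 7600 normalized counts in mock and 15729, 15201, 14844 and 17418 after zaxinone. The ranges within each group were narrow beside the gap between them, and the log2 fold change was 1.198 ± 0.137 (SE, edgeR, adjusted p = 0.000106). ALDH7B4, an aldehyde dehydrogenase induced by salt and drought, had 64.2, 78.7, 78.4 and 58.8 FPKM in mock and 139, 179, 138 and 134 FPKM after zaxinone. It rose by 1.07 ± 0.16 on the log2 scale (SE, edgeR, adjusted p = 0.000932), with replicate 2 the highest. ASN1, the asparagine synthetase of sugar-starved tissue, had 1995, 1930, 3187 and 1616 normalized counts in mock and 3421, 8372, 4797 and 3599 after zaxinone. Replicate 2 was the highest there too, by a wide gap. Its log2 fold change was 1.21 and the adjusted p 0.0278 in edgeR, or 0.85 and 0.0596 without that library. Without mock replicate 1, 2 or 4 or zaxinone replicate 3 the adjusted p was between 0.0665 and 0.0884.

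The 5 members that a word search of the descriptions counted as transporters were all higher. The other listed genes it counted split into 39 higher and 27 lower. It missed the lower members AT1G61740, of the sulfite exporter family, and AT5G52680 and AT5G52690, of the copper transport protein family. Their log2 fold changes in the authors' deposited table were -1.01, -1.08 and -1.09. The 5 counted were ALMT1, ABCG7, UMAMIT14 and the neighbouring MATE efflux genes AT1G33090 and AT1G33100. Of these, edgeR called ALMT1 and AT1G33100. ALMT1, the malate channel that protects roots from aluminium, had 753, 655, 642 and 1169 normalized counts in mock and 1752, 1456, 1233 and 2084 after zaxinone. Mock replicate 4 was close to the lowest zaxinone library. The adjusted p was 0.0158 (edgeR, log2 fold change 1.02 ± 0.23, SE) and between 0.0539 and 0.0623 without mock replicate 2 or 3 or zaxinone replicate 1 or 4. For AT1G33100 it was 0.0226, and between 0.0534 and 0.0821 without any library but zaxinone replicate 1. Among 57 matched detoxification genes 33 were listed, all higher, with a median log2 fold change of 2.97. The only member, GSTU11, had 69.5, 67.6, 41.0 and 63.7 in mock and 79.6, 122, 113 and 198 after zaxinone (edgeR, adjusted p = 0.0727).

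The 6 members that the word search counted as cytochrome P450 were all lower. Among the other 36 listed genes it counted, 26 were higher and 10 lower. CYP79C2, of this family by its symbol, was not counted by the search and was lower too. The class was counted with the directions known, as a description. Of the 6, CYP91A2, AT3G15760 and CYP735A1 fell in edgeR, and CYP71B14, CYP706A6 and the pseudogene CYP705A17P did not pass. CYP91A2 had 531, 819, 537 and 768 normalized counts in mock and 273, 209, 323 and 256 after zaxinone. AT3G15760 had 160, 350, 234 and 324 in mock and 122, 108, 81.6 and 113 after zaxinone. The groups were apart in both, with log2 fold changes of -1.32 ± 0.21 and -1.33 ± 0.27 (SE, edgeR, adjusted p = 0.00142 and 0.00782).

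The largest falls with groups apart included 2 genes of pectin metabolism. AT5G62360 (chr5:25040540-25041504, plus strand), of the family of inhibitors of invertase and pectin methylesterase, had 902, 718, 794 and 1075 normalized counts in mock and 194, 205, 242 and 301 after zaxinone. AT1G02460 (chr1:504463-507268, minus strand), a pectin lyase-like protein, had 1311, 942, 963 and 1170 in mock and 292, 318, 359 and 346 after zaxinone. No zaxinone library came near mock in either gene, and their log2 fold changes were -1.89 ± 0.20 and -1.74 ± 0.17 (SE, edgeR, adjusted p = 6.83e-05 and 3.14e-05). AT5G03890, of unknown function, had 375, 303, 364 and 468 in mock and 95.6, 106, 146 and 166 after zaxinone. TCP4, a transcription factor that limits cell proliferation in leaves, had 403, 443, 354 and 468 in mock and 124, 157, 130 and 216 after zaxinone. Both fell (edgeR, log2 fold changes -1.56 ± 0.23 and -1.41 ± 0.22, SE, adjusted p = 0.000851 and 0.00112). These 4 genes passed under every setting tried.

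The other large falls were AT1G29090, LEA3, AT2G30540, AT1G16260, AT3G15760, CYP91A2, AT4G29990 and the non-coding RNA AT1G05523, all called by edgeR. AT1G29090, a cysteine proteinase, had 31.1, 79.6, 44.3 and 30.6 normalized counts in mock and 16.9, 1.07, 8.54 and 9.44 after zaxinone. Its adjusted p was 0.0222 in edgeR, and 0.0828, 0.0957 and 0.0701 without mock replicate 2 or zaxinone replicate 3 or 4. LEA3 and the thioredoxin superfamily gene AT2G30540 stood at means under 50 normalized counts and each lost the call in 5 of the 8 fits that left a library out.

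Receptor-like proteins and kinases were mostly lower, 7 of 9 members, as were 46 of the other 60 listed genes of that class. AT4G29990, a leucine-rich repeat kinase, had 221, 525, 419 and 444 normalized counts in mock and 190, 187, 130 and 137 after zaxinone. AT1G16260, a wall-associated kinase, had 159, 514, 339 and 267 in mock and 144, 71.7, 153 and 125 after zaxinone. In both genes mock replicate 1 was low and close to the zaxinone range. AT4G29990 fell by 1.32 on the log2 scale (edgeR, adjusted p = 0.00834). AT1G16260 passed at 0.0366 in edgeR, and lay between 0.0746 and 0.135 without mock replicate 2 or 3 or any zaxinone library. RPP13, a receptor for downy mildew effectors, had 488, 1045, 889 and 498 in mock and 362, 261, 399 and 354 after zaxinone. Its adjusted p was 0.0301, or 0.115 and 0.107 without mock replicate 2 or 3 and between 0.0658 and 0.0918 without any zaxinone library (edgeR). AT1G61500, an S-locus lectin kinase, had 347, 725, 838 and 646 in mock and 336, 220, 363 and 251 after zaxinone, so that its groups overlapped. Its adjusted p of 0.0261 (edgeR) rose to between 0.0516 and 0.101 without mock replicate 2, 3 or 4 or zaxinone replicate 1, 2 or 4.

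The 2 most abundant genes of the set were lower, and the next 3, SUS1, AT3G03270 and ALDH7B4, were higher. AT1G61740, of the sulfite exporter family, had 366, 406, 454 and 478 FPKM in mock and 200, 211, 197 and 238 FPKM after zaxinone. AT4G11290, a peroxidase, had 262, 342, 379 and 424 FPKM in mock and 154, 163, 140 and 239 FPKM after zaxinone. The groups were apart in both, and the log2 fold changes were -1.01 ± 0.15 and -1.02 ± 0.21 (SE, edgeR, adjusted p = 0.000932 and 0.00818). IP5PII, a phosphatase of inositol polyphosphates, had 2252, 3060, 2902 and 2421 normalized counts in mock and 1241, 1101, 1394 and 1294 after zaxinone (edgeR, log2 fold change -1.08 ± 0.15, SE, adjusted p = 0.000504).

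**Figure D5:**
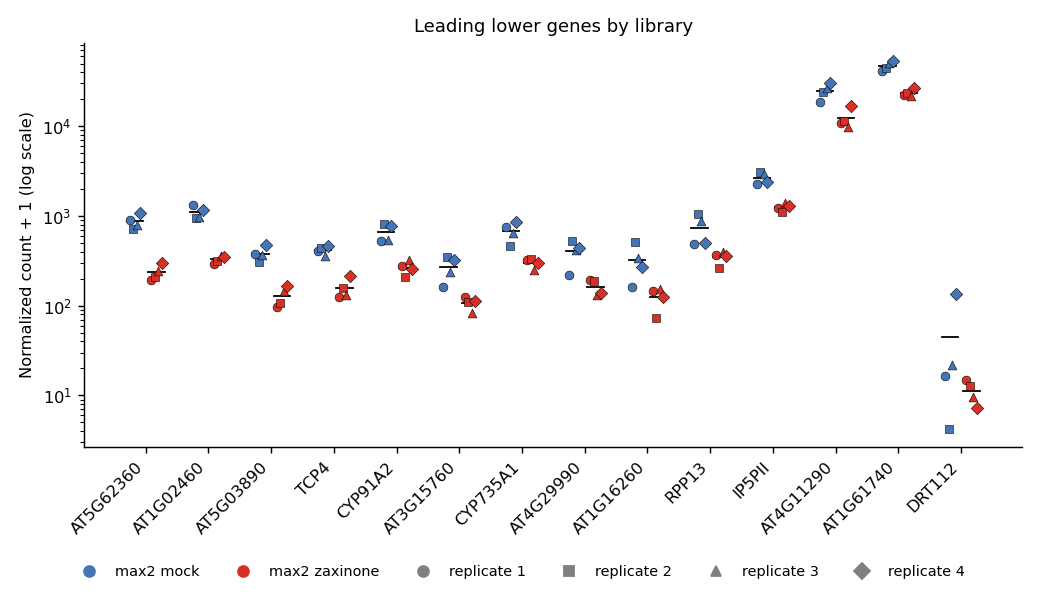
Normalized counts plus 1 (log scale) of 14 lower genes in the mock (blue) and zaxinone (red) libraries of max2; marker shapes give the replicate and black lines the group means. AT5G62360 ran from 718 to 1075 in mock and from 194 to 301 after zaxinone, while the mock mean of DRT112 rested on replicate 4 (134 against 3.27 to 21.0).

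A few leaf genes were looked at, all at low levels, and the lower ones among them were highest in mock replicate 4. DRT112, the plastocyanin of photosynthesis and the set's member on the list of shoot photosynthesis markers, had 15.6, 3.27, 21.0 and 134 normalized counts in mock and 13.9, 11.8, 8.54 and 6.29 after zaxinone. GOX1, the glycolate oxidase of photorespiration and not on that list, had 5.49, 3.27, 24.4 and 74.5 in mock. After zaxinone it had 9.96, 5.35, 4.74 and 0. Both were highest in mock replicate 4 and did not pass (edgeR, adjusted p = 0.426 and 0.380), and without that library the log2 fold change of DRT112 was -0.39. Of 50 matched shoot markers 3 were listed in max2. Other members of plastid function, not among these markers, were higher. PORB, LQY1 and HCF107 had log2 fold changes of 1.37, 1.05 and 2.03 in the authors' deposited table, with adjusted p of 0.00394, 0.0348 and 0.0279 there. PORB overlaps AT4G27450 of the opposite strand, so that reads may be shared. AT4G27450 had 16687 to 22687 normalized counts in mock and 21998 to 57429 after zaxinone. Outside the set, FBA2, an aldolase of the plastid, had 7.32, 10.9, 31.0 and 69.5 in mock and 9.96, 4.28, 0 and 1.05 after zaxinone. PSBO2, a protein of photosystem II, went the other way, with 38.4, 34.9, 33.2 and 76.1 in mock and 142, 212, 172 and 136 after zaxinone, although mock replicate 4 was again the highest of the mock libraries. The summed level of the 3 markers was 61.3, 49.1, 85.3 and 280 in mock and 166, 228, 180 and 144 after zaxinone. The part of leaf RNA in the other results was not tested.

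Genes that do not code for protein made up 28 of the 192 (14.6%), against 5.75% of the other listed genes. Of these 28, 21 were lower, and they included 2 precursors of microRNAs, 8 long non-coding RNAs and 10 pseudogenes of any kind. MIR160b, whose microRNA cuts transcripts of auxin response factors, had 32.03, 16.4, 19.9 and 53.8 normalized counts in mock and 2.99, 13.9, 19.0 and 5.24 after zaxinone. MIR839 had 1.83, 8.73, 7.75 and 5.79 in mock and 0.996, 0, 0.949 and 0 after zaxinone. The values of MIR160b overlapped and those of MIR839 did not, and neither passed (edgeR, adjusted p = 0.238 and 0.0518). The libraries measured polyadenylated precursors and not the mature forms, whose sequences follow from the RefSeq annotation of TAIR10.1, 5′ to 3′ with the seed (bases 2 to 8) in capitals, to show that the seeds differ.
miR160b, chr4:9888986-9889006, plus strand: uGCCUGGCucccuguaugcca
miR839-5p, chr1:25279138-25279158, minus strand: uACCAACCuuucaucguuccc

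Some members were neighbours in the annotation. ERF71 lies beside AT2G47530, a pollen Ole e 1 and extensin family gene on the opposite strand. AT2G47530 had 78.7, 37.1, 64.2 and 58.8 normalized counts in mock and 189, 144, 131 and 173 after zaxinone. It rose by 1.41 ± 0.26 on the log2 scale (SE, edgeR, adjusted p = 0.00445) without the gap in replicate 2 that ERF71 showed. The adjoining genes AT1G51010 and AT1G51020, both of unknown function, had at most 0.915 and 5.54 in mock. After zaxinone AT1G51010 had 16.9, 2.14, 14.2 and 11.5, and AT1G51020 had 56.7, 5.35, 56.9 and 30.4. Both had their lowest zaxinone value in replicate 2 (edgeR, adjusted p = 0.00843 and 0.0154), and AT1G51020 lost its call without zaxinone replicate 1 or 3 (0.0549 and 0.0692). IP5PII, lower, lies beside APRR2, a pseudo-response regulator that was higher, with 195, 144, 121 and 141 in mock and 321, 294, 422 and 211 after zaxinone. Its adjusted p was 0.0223 in edgeR, and between 0.0618 and 0.0971 without mock replicate 2, 3 or 4 or zaxinone replicate 1 or 3. Neighbours had opposite directions there.

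In other neighbours the reads may be shared. The non-coding RNA AT2G44798 overlaps AT2G44800, an oxygenase gene, on the opposite strand. AT2G44798 had 421, 263, 229 and 473 normalized counts in mock and 1598, 302, 1156 and 1010 after zaxinone. AT2G44800 had 8.24, 7.64, 2.21 and 5.79 in mock and 66.7, 5.35, 66.4 and 113 after zaxinone. Zaxinone replicate 2 lay within the mock range in both (edgeR, adjusted p = 0.0471 and 0.0105). That of AT2G44798 was between 0.0597 and 0.202 without any library but mock replicate 4 and zaxinone replicate 2. The non-coding RNA AT1G05523 lies against AT1G20070, a far more abundant gene of unknown function, with log2 fold changes of -1.29 and -1.04 (edgeR, adjusted p = 0.00819 and 0.00551). PORB overlaps AT4G27450, a low-oxygen gene of the opposite strand that another table also lists. Of the 192 genes, 51 (26.6%) overlap another annotated gene, against 22.3% of the other listed genes. The set was spread over all 5 chromosomes, with between 14.6% of it on chromosome 2 and 27.1% on chromosome 1.

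Promoters were searched for short motifs in the 250 bases before the annotated start of protein-coding genes, on both strands. The evening element (AAATATCT), bound by clock proteins of the MYB type, was present in 11 of 103 higher members (10.7%) and 7 of 61 lower members (11.5%). It was in 7.72% of the other listed higher genes, 4.22% of the other listed lower genes and 4.79% of all 27443 protein-coding genes. The W-box (TTGACC), bound by WRKY factors, was in 13.6% of higher and 23.0% of lower members, against 12.2% of all genes. The G-box (CACGTG) was in 9.71% of higher and 3.28% of lower members, against 6.49% of all, and the other listed genes split alike with 11.6 and 2.88%. The short heat shock element (GAANNTTC) was in 8.74 and 9.84%, against 9.55% of all genes. The ABRE core (ACGTGG), which can overlap the G-box, was in 11.7 and 8.20% (all genes 8.23%), and the core of the dehydration-responsive element (CCGAC) in 16.5 and 11.5% (all genes 11.97%). The phosphate motif P1BS (GNATATNC) was in 5.83 and 6.56% (all genes 5.46%), the auxin response element (TGTCTC) in 11.7 and 8.20% (all genes 10.9%), and the GCC-box (GCCGCC) in 0.971 and 1.64% (all genes 1.87%). A match is a description of letters and no site of binding. The promoter of ERF71 held none of the motifs searched.

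The following windows of TAIR10.1 are given 5′ to 3′ in the direction of the gene, with matches in capitals. They show AT4G37710, first among the 12 largest rises, with 3 matches of the heat shock element and 1 of the W-box, and 3 leading members with the evening element. OST1 and SRO5 were higher and AT5G62360 lower after zaxinone. SRO5 and AT5G62360 also hold the core of the dehydration-responsive element.
AT4G37710, chr4:17717868-17718117, plus strand: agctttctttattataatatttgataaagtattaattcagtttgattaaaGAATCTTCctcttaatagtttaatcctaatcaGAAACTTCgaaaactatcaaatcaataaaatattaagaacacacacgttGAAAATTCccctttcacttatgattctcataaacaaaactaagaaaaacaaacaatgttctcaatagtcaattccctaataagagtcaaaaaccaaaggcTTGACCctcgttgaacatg
OST1, chr4:16271495-16271744, plus strand: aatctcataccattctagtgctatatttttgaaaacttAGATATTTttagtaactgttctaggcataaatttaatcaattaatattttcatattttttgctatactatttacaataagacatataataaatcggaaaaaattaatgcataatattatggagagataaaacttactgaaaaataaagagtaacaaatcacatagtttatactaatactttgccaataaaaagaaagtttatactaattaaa
SRO5, chr5:25097694-25097943, plus strand: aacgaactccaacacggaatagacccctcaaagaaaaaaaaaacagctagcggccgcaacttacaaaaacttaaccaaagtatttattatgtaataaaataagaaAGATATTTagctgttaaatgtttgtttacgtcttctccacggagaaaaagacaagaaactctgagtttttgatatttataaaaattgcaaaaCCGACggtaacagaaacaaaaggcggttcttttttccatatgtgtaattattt
AT5G62360, chr5:25040290-25040539, plus strand: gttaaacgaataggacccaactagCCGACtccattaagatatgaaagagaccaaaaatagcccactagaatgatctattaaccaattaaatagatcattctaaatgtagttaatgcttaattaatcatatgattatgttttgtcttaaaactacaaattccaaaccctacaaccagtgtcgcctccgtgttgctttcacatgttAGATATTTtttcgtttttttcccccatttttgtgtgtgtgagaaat

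Each of the other genotypes had a list of its own of this kind, with 365 genes in Col-0, 595 in d14 and 344 in kai2. These were 19.9, 25.5 and 18.8% of their tables, against 12.7% in max2. The share of higher genes was 44.9, 75.8 and 55.5% there and 57.3% in max2, where 57.9% of all listed genes were higher. Their median absolute log2 fold changes in the authors' deposited tables were 1.25, 1.25 and 1.21, against 1.33 in max2. Median levels were 0.940, 2.33 and 2.15 FPKM in the lists of Col-0, d14 and kai2, of which the first was nearest to the 0.934 FPKM of max2. Most genes of every table were shared with another table, 80.1% in Col-0, 74.5% in d14, 81.2% in kai2 and 87.3% in max2. In max2 these were 827 of the 1514 with all 3 other tables, 302 with 2 and 193 with 1.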

How the data were processed

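Roots of 4 genotypes were compared between zaxinone and mock, with 4 polyadenylated RNA libraries per group, 32 in all. The deposited tables give, per the file headers, raw counts, normalized counts (a signal), FPKM values, log2 fold changes, p-values and adjusted p-values. Per the labels' protocols libraries were paired-end; the tools HISAT2 and StringTie come from the submitters' processing notes. For the authors' model and genome build: not given in the sources used here. Exon lengths implied by counts and FPKM equalled those of the TAIR10.1 annotation in every gene with at least 20 counts, so its coordinates were used. The deposited tables hold only genes past the authors' adjusted p of 0.05 and absolute log2 fold change of 1, not the whole test the design assumed.

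Counts of the 1514 max2 genes were fitted with edgeR 4.0.16 (quasi-likelihood, with library scales from the authors' factors, R 4.3.3), after a test on simulated data. Benjamini-Hochberg adjustment ran over the implied 24534 tests. Replicates differed by more than sampling noise. Alternatives used DESeq2 1.42.0, limma-voom 3.58.1, TMM, total depth, filterByExpr, adjustment over the listed genes, a replicate block and each library left out. Members and lists were chosen with earlier results of these data known. Named genes were the 12 largest rises and falls (at least 20 normalized counts, groups apart), members on the lists, the 2 most abundant per annotation class, the 5 highest FPKM, the 3 nearest each threshold, and neighbours. The other lists, among them strigolactones and karrikins, abscisic acid metabolism, nutrients, immunity, cell walls, root cell types, clock and cell cycle, held no member.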

Additional observations from a re-analysis of the deposited data

Results flagged for a closer look

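In 9 of the 152 groups of 4 libraries behind the named genes, 1 library stood far from the others (Dixon's test at 95%), where chance gives about 5% of groups. DRT112 had 134.1 normalized counts in mock replicate 4, against 3.27 to 21.0 in the others. AT4G15160, a lipid-transfer protein, had 1332 in mock replicate 1, against 544 to 677. AT1G05523 had 165.8 in mock replicate 2, against 111 to 119. MES10 had 11.07 in mock replicate 3, against 6.41 to 6.62. ALDH7B4 had 24560 in zaxinone replicate 2, against 18374 to 19028. ICL, the isocitrate lyase of the glyoxylate cycle, had 468.7 in zaxinone replicate 3, against 325 to 334. AT1G66830 had 60.73 in zaxinone replicate 1, against 46.5 to 48.2. AT3G46735 had 8.388 in zaxinone replicate 4, against 14.9 to 15.2. AT5G49420, a MADS-box gene, had 0 in zaxinone replicate 3, against 2.99 to 3.21.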

How the results depend on the processing

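The set held 208 genes when genes that other tables list only in the opposite direction were included, 133 at an authors' adjusted p under 0.01 and 81 where the absolute log2 fold change reached 1.5. With TMM over the listed genes, edgeR called 20 higher and 71 lower members, and the medians were 0.79 and -1.91. With adjustment over the listed genes alone all 110 higher and all 82 lower members were called. The listed genes had already passed the authors' adjusted p, so this setting is no independent check. DESeq2 called 83 higher and 45 lower members, and limma-voom 61 and 36. With 1 library left out, calls ranged from 52 to 68 higher and from 23 to 39 lower, and the medians from 1.205 to 1.370 and from -1.49 to -1.32. Lower calls were 26 without mock replicate 2, and 26, 27 and 23 without zaxinone replicates 2, 3 and 4. With the replicate block, 66 higher and 24 lower members were called, and the cause of the lower count was not tested. Same-numbered libraries correlated with -0.15 to 0.14 in their deviations from the group means, and differently numbered ones with -0.17 to 0.19. These ranges are alike and cannot settle whether libraries of the same number were handled together. Counting groups that do not overlap from FPKM gave the same 149 members. Of 76 named genes, edgeR called 61, of which 23 passed under every alternative, 23 lost the call in a fit without 1 library, 25 under TMM, 16 under limma-voom, 14 under the replicate block and 0 under DESeq2. No named gene changed direction. In 43 members the higher group averaged under 20 normalized counts, where few reads limit the precision.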
